A study of Homo sapiens with 6 samples.

Results

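Small RNAs silence genes through a short chain of proteins, and 10 genes of that chain were followed here: DROSHA, DGCR8, XPO5, DICER1, TARBP2, PRKRA and the Argonaute genes AGO1, AGO2, AGO3 and AGO4. They were chosen by symbol, as array rows whose only gene symbol is one of these names, and all 10 were found, with 1 row each, among 18417 genes on the array. The cells were YCC3, an established line from human gastric cancer. Their RNA was taken 48 hours after they received CTNNB1 siRNA (3 arrays) or non-targeting control siRNA (3 arrays). CTNNB1 encodes beta-catenin, the co-activator of the Wnt pathway, and the comparison asks which transcripts differ when it is silenced. Both groups were grown in MEM with 10% FBS and both received a transfected siRNA, so there is no group without one. The labels call the samples biological replicates without saying whether they were separate transfections, so a p-value here weighs a difference only against the spread among these 6 samples, which may be technical.

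A microRNA is transcribed as part of a longer RNA that folds into a hairpin. In the nucleus the Microprocessor, made of the nuclease DROSHA and its RNA-binding partner DGCR8, cuts the hairpin out. XPO5 (exportin 5), with the GTPase RAN, carries it to the cytoplasm. There DICER1, with the double-stranded RNA binding proteins TARBP2 or PRKRA, trims it to a short duplex. An Argonaute protein keeps a single strand of that duplex as the guide of the silencing complex, RISC, which lowers the translation and stability of matching mRNAs. A transfected siRNA enters at the Argonaute step, and AGO2 is the Argonaute known for cutting the siRNA's target. The Argonaute genes measured here are therefore also machinery on which the siRNA method depends, in the control cells as in the treated ones.

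XPO5, DROSHA and AGO1 were the members with the smallest p-values, so the DNA just before their annotated starts is shown. RefSeq promoters matched 9 of the 10 genes (not AGO2), and the 250 bases upstream of the start are printed, read 5′ to 3′ on the gene's strand in build GRCh38.p14. Capitals mark matches to the motif of the transcription factor NRF1, GCGCANGCGC on either strand. XPO5 lies at chr6:43576039-43576288 (minus strand), DROSHA at chr5:31532094-31532343 (minus strand) and AGO1 at chr1:35882959-35883208 (plus strand).
XPO5: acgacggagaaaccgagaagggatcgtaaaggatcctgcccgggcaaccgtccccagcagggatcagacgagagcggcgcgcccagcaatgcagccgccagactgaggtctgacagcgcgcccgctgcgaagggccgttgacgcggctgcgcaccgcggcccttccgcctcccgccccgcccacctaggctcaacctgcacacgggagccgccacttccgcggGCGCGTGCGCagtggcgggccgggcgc
DROSHA: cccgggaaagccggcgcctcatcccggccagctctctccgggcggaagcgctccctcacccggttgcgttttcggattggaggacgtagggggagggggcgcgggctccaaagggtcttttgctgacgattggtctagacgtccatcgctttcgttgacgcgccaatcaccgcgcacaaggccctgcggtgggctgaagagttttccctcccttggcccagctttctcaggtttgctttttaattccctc
AGO1: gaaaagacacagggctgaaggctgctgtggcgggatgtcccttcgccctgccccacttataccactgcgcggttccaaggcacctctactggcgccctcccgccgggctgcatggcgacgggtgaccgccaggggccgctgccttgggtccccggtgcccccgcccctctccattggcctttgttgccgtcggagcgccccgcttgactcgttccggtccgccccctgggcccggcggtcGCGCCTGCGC

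These upstream stretches are rich in G and C: 72.4% for XPO5, 62.0% for DROSHA and 71.6% for AGO1, beside a median of 58.0% over all 35116 RefSeq promoters of the same length. The NRF1 motif was found in XPO5 and AGO1 among the 9 members, and in 5.07% of all promoters. The GC box, GGGCGG, was found in 8 of the 9 members (not AGO4) and in 42.6% of all promoters. It can overlap other GC-rich motifs. None of the 9 held CTTTGAA or CTTTGAT, the sites of the TCF/LEF partners of beta-catenin, which occurred in 5.94% of all promoters. None held GAAANNGAAA, the core of the interferon-stimulated response element (3.02% of promoters), or CACGTG, the E-box read by MYC and MAX (6.34%). The ETS motif CCGGAAG was in AGO3 alone (8.52% of promoters), and the E2F motifs TTTCCCGC and TTTGGCGC (1.93%) and the YY1 motif AAGATGGC (1.36%) were in none. Both strands were searched for each motif. Each member was searched in a single promoter, while the shares and the median GC are over all 35116 entries. Those entries were not limited to genes on the array or matched to the members in signal. The motifs were chosen after the array values were seen, and the matches are a description of these letters.

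All 10 genes had a lower mean with CTNNB1 siRNA than with control siRNA, by 0.03 to 0.46 on the log2 scale, but only 1, XPO5, passed the test. Values are log2 RMA signals, where a difference of 1 is a doubling, and a gene is said to have risen or fallen only if its adjusted p was under 0.05 in limma, adjusted over all genes. By that rule 4.72% of all genes were called in either direction, beside 1 of the 10. The median change of the 10 genes was -0.19, beside 0.01 over all genes, of which 48.8% had a negative change. The control and CTNNB1 siRNA arrays did not overlap for 4 of the 10 genes (XPO5, DROSHA, AGO1 and AGO3), all lower with CTNNB1 siRNA, as was the case for 15.2% of all genes. Unadjusted p-values under 0.05 with a lower mean were found for 3 of the 10 and for 12.0% of all genes. Of the 10, 9 lie among the genes brighter than the median, whose own median change was -0.05, against 0.04 among the dimmer genes. How much of the members' shift follows that slope was not tested.

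**Figure D1:**
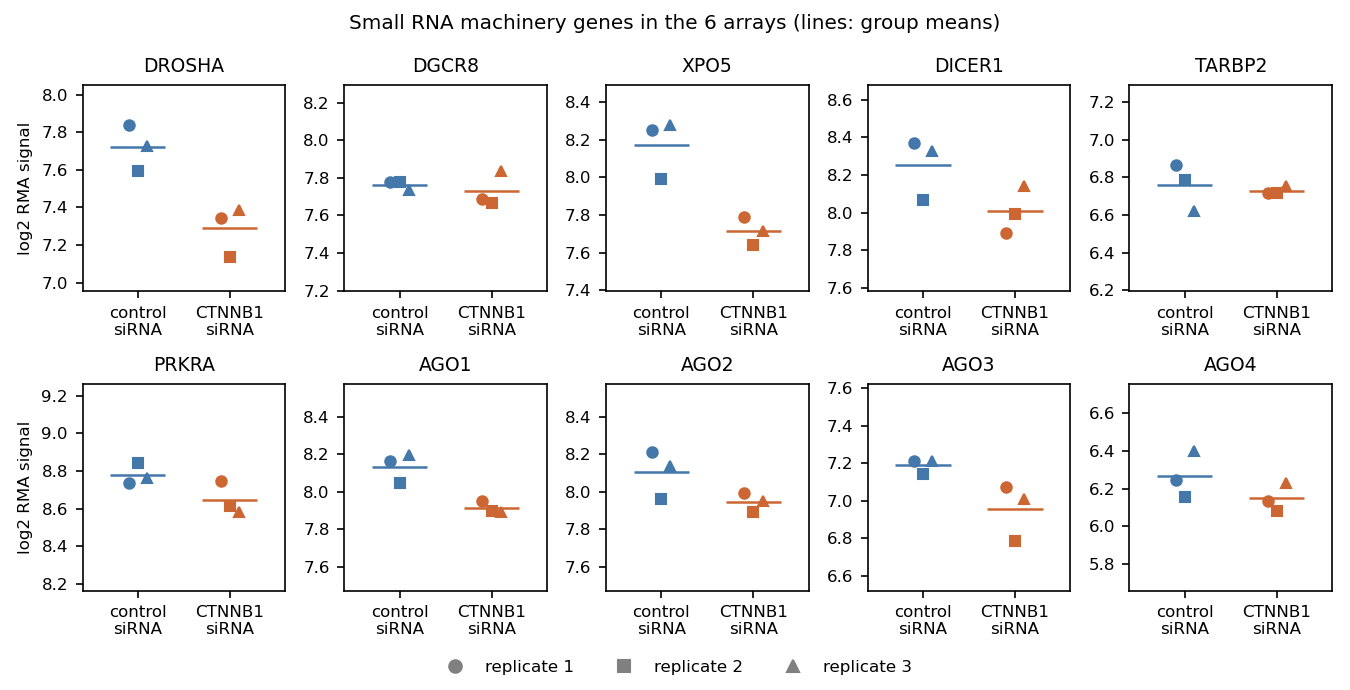
Log2 RMA signal of each of the 10 genes in every array, control siRNA on the left and CTNNB1 siRNA on the right of each panel, with a symbol per replicate number and a line at each group mean; every panel spans the same number of log2 units. The groups are apart for DROSHA, XPO5, AGO1 and AGO3 and overlap for the other 6.

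The targeted transcript was measured first as a check of the labels. CTNNB1 read 11.80, 11.81 and 11.90 in the control arrays and 10.94, 11.06 and 11.20 with CTNNB1 siRNA. The groups were apart by more than their spread, at -0.77 ± 0.10 log2 units (SE), with an adjusted p of 0.00267 in limma (0.0660 with no moderation of the variance). That is 41.4% less signal, so the transcript was still present 48 hours after transfection.

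Marker genes were read as a check of the labelled cell type, each on its own probes, whose levels cannot be set against those of another gene. EPCAM, an epithelial adhesion gene, measured 11.78 ± 0.11 and the keratin gene KRT8 13.57 ± 0.08 in the control arrays (SD, n = 3 each). In those arrays the leukocyte gene PTPRC measured 2.58 ± 0.19 and the endothelial gene PECAM1 4.04 ± 0.06 (SD, n = 3 each), while the collagen gene COL1A1 measured 6.66 ± 0.05. KRT8 and COL1A1 were the highest of their marker lists and PTPRC the lowest. Control means ran from 5.50 to 13.57 over the epithelial and gastric markers. They ran from 2.58 to 6.51 over the leukocyte markers and from 2.20 to 6.66 over the endothelial and fibroblast markers, so the ranges overlap. None of 12 leukocyte or 14 endothelial and fibroblast markers was called in limma. None had an unadjusted p under 0.05, beside 3746 of all 18417 genes. Of 20 epithelial and gastric markers 4 rose and none fell. The mean of the epithelial list lay between 9.82 and 9.90 in the control arrays and between 10.07 and 10.14 with CTNNB1 siRNA, and its part in the members' values was not tested. The leukocyte list's mean ranged from 4.45 to 4.61 and from 4.58 to 4.78, and the endothelial and fibroblast list's from 4.38 to 4.50 and from 4.48 to 4.54.

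Neither subunit of the Microprocessor passed the test. DROSHA, the nuclease, read 7.84, 7.59 and 7.73 in the control arrays and 7.34, 7.14 and 7.38 with CTNNB1 siRNA. Every CTNNB1 siRNA array was below every control array. The log2 change was -0.43 ± 0.11 (SE), or 25.9% less signal with a 95% interval of 12.2% to 37.4%, and the adjusted p of 0.0543 in limma missed the threshold narrowly. It passed in 6 of 17 other settings, with an adjusted p as low as 0.00925 when the dimmest 50% of genes were left out, and reached 0.211 without control replicate 1.

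DGCR8, the partner that holds the hairpin, read 7.78, 7.78 and 7.73 in the control arrays and 7.69, 7.66 and 7.84 with CTNNB1 siRNA. Its groups overlapped, and its change of -0.03 ± 0.09 (SE; limma, adjusted p = 0.882) became 0.0042 under a second quantile normalization and 0.0064 under cyclic loess. The interval ran from 15.6% less to 13.1% more signal. Within arrays, the DROSHA signal relative to DGCR8 was lower by 0.40 ± 0.09 (SE) in log2 units with CTNNB1 siRNA, and the arrays of the groups did not overlap. The exact permutation test of that difference gave p = 0.10, two-sided, the smallest that 3 arrays against 3 allow, and 0.35 after adjustment over the 7 differences of this kind.

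DGCR8 is itself known as a target of the Microprocessor, which cuts hairpins in its mRNA. RefSeq places 2 microRNA genes inside DGCR8, and none of them had a row of its own on the array. Their mature sequences are printed with the seed, bases 2 to 8, in capitals, to show what those hairpins encode. The hairpins lie on the plus strand of chromosome 22 in GRCh38.p14, with miR-3618 at chr22:20085797-20085818, miR-1306-5p at chr22:20086072-20086093 and miR-1306-3p at chr22:20086112-20086129.
miR-3618: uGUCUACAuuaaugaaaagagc
miR-1306-5p: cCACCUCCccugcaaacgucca
miR-1306-3p: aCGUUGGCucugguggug

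No seed is shared among these 3. None of the 3 seeds occurs in another mature microRNA of the RefSeq table, which may not hold every microRNA. The array row of DGCR8 reads its mRNA as a whole and does not tell cut from uncut transcripts.

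XPO5, the exporter of hairpin precursors, fell. It read 8.25, 7.99 and 8.28 in the control arrays and 7.79, 7.64 and 7.72 with CTNNB1 siRNA. The lowest control array, replicate 2, was still above the highest CTNNB1 siRNA array. The log2 change was -0.46 ± 0.11 (SE), or 27.3% less signal with a 95% interval of 14.1% to 38.5% (limma, adjusted p = 0.0417). Of all 18417 genes, 483 had a change at least this far below 0, XPO5 included.

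**Figure D2:**
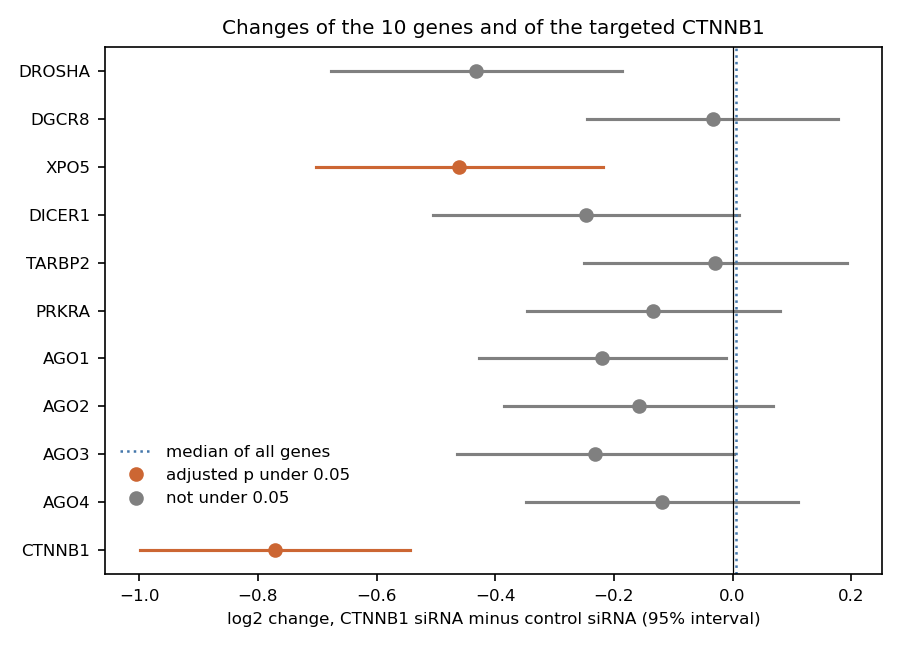
Log2 change of each of the 10 genes and of the targeted CTNNB1 (points), CTNNB1 siRNA minus control siRNA, with the 95% interval of the limma fit and a dotted line at the median of all genes. XPO5 and CTNNB1 were called, and the intervals of DROSHA and AGO1, which were not called, also stay below 0.

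The call of XPO5 depended on most of the arrays and on the variance model. It passed without control replicate 2 (adjusted p = 0.0331) and under all 3 other scalings of the arrays (at most 0.0443). It was lost without control replicate 1 (adjusted p = 0.168), control replicate 3 (0.140), CTNNB1 siRNA replicate 1 (0.0973), CTNNB1 siRNA replicate 2 (0.117) or CTNNB1 siRNA replicate 3 (0.0749). With each array left out the log2 change stayed between -0.55 and -0.41. With all 6 arrays the call was lost with no moderation of the variance (adjusted p = 0.156) and when every row was tested (0.137). Over all alternatives limma's adjusted p ran from 0.00618 to 0.168.

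**Figure D3:**
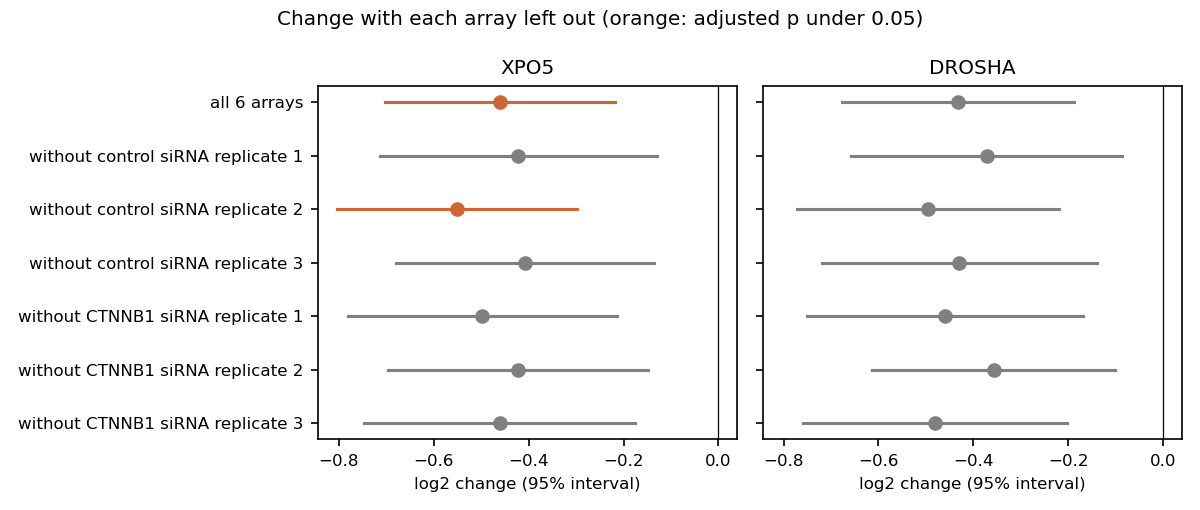
Log2 change of XPO5 (left) and DROSHA (right) with all 6 arrays and with each array left out (points), with 95% intervals of the limma fit; orange marks an adjusted p under 0.05. All changes stay between -0.55 and -0.36, while XPO5 is called only with all arrays or without control replicate 2.

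The genes whose values over the 6 arrays ran most like those of XPO5 were PPP3CA, a calcineurin subunit (Pearson r = 0.998), TRRAP, a scaffold of histone acetyltransferase complexes (0.996), SLC25A32, a mitochondrial carrier (0.995), RLIG1, an RNA ligase (0.994), and AGO1 (0.994). The 6 arrays fall into 2 groups of 3 and share their scaling, and 309 genes had an r above 0.95, so the ranking is a description. SLC25A32 fell by 0.54 ± 0.12 on the log2 scale (SE), with an adjusted p of 0.0338 in limma. PPP3CA measured -0.36 ± 0.10 (adjusted p = 0.0695), TRRAP -0.30 ± 0.10 (0.125) and RLIG1 -0.37 ± 0.10 (0.0654).

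XPO5 works with RAN, the GTPase that loads and releases exportin cargo. RAN measured 11.59 ± 0.17 in the control arrays and 11.42 ± 0.19 in the CTNNB1 siRNA arrays (SD, 3 arrays), and its change of -0.17 ± 0.13 (SE) had an adjusted p of 0.518 in limma. The XPO5 signal relative to RAN within each array was lower by 0.29 ± 0.08 (SE) with CTNNB1 siRNA, with no overlap between the groups. The exact permutation p was 0.10, the smallest possible, and 0.35 after adjustment over the 7 differences.

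DICER1, which cuts the exported hairpin to its final length, read 8.37, 8.07 and 8.33 in the control arrays and 7.89, 7.99 and 8.14 with CTNNB1 siRNA. Control replicate 2 lay below CTNNB1 siRNA replicate 3, so the groups overlapped. The change was -0.25 ± 0.12 (SE), with an interval from 29.6% less to 0.749% more signal (limma, adjusted p = 0.266).

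The double-stranded RNA binding partners of DICER1 differ in a second role: TARBP2 restrains the antiviral kinase PKR, and PRKRA, also called PACT, activates it. TARBP2 read 6.87, 6.79 and 6.62 in the control arrays and 6.72, 6.72 and 6.75 with CTNNB1 siRNA. Its change of -0.03 ± 0.10 (SE; limma, adjusted p = 0.903) was the smallest of the 10, and it was 0.025 without control replicate 1. The interval ran from 16.0% less to 14.3% more signal.

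PRKRA read 8.73, 8.84 and 8.76 in the control arrays and 8.75, 8.62 and 8.58 with CTNNB1 siRNA. CTNNB1 siRNA replicate 1 sat within the control range, and the change was -0.13 ± 0.10 (SE; limma, adjusted p = 0.487). TARBP2 relative to PRKRA differed by 0.10 ± 0.10 (SE) between the groups (exact permutation p = 0.40). DICER1 relative to TARBP2 was lower by 0.22 ± 0.14 (SE; exact permutation p = 0.20). For both differences the groups of arrays overlapped.

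PKR itself is encoded by EIF2AK2, which measured 9.62 ± 0.05 in the control arrays and 10.83 ± 0.11 in the CTNNB1 siRNA arrays (SD, 3 arrays). It rose 2.31-fold by limma, with an adjusted p of 8.48e-05. The kinase transcript thus rose while neither of its DICER1-associated regulators passed the test. Whether the change of EIF2AK2 differs from theirs was not tested.

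The Argonaute genes all lay lower by 0.12 to 0.23, and none passed the test. AGO4, AGO1 and AGO3 neighbour each other in that order on chromosome 1, and AGO2 lies elsewhere. AGO1 read 8.16, 8.05 and 8.19 in the control arrays and 7.95, 7.90 and 7.89 with CTNNB1 siRNA. The groups did not overlap and the CTNNB1 siRNA arrays lay close together. The change was -0.22 ± 0.09 (SE), or 14.1% less signal (limma, unadjusted p = 0.0405, adjusted p = 0.219).

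AGO3 read 7.21, 7.14 and 7.21 in the control arrays and 7.07, 6.79 and 7.01 with CTNNB1 siRNA. The control arrays were tight and the CTNNB1 siRNA arrays spread over a wider range, all below them. The change was -0.23 ± 0.10 (SE; limma, adjusted p = 0.249).

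AGO2, the slicer on which siRNA knockdown depends, read 8.21, 7.96 and 8.14 in the control arrays and 7.99, 7.89 and 7.95 with CTNNB1 siRNA. Control replicate 2 lay inside the CTNNB1 siRNA range. The change was -0.16 ± 0.10 (SE; limma, adjusted p = 0.432), with an interval from 23.4% less to 4.79% more signal. AGO4 read 6.25, 6.15 and 6.40 in the control arrays and 6.13, 6.08 and 6.23 with CTNNB1 siRNA, again overlapping, for a change of -0.12 ± 0.10 (SE; adjusted p = 0.572).

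None of the differences among the Argonaute genes separated the groups of arrays. Relative to AGO2 within each array, AGO1 shifted by -0.06 ± 0.04 (SE) and AGO3 by -0.07 ± 0.08. AGO4 relative to AGO2 shifted by 0.04 ± 0.08, a sign that turned under cyclic loess, a second quantile normalization and without control replicate 1. The exact permutation p-values were 0.30, 0.50 and 0.70. A design of 3 against 3 cannot go below 0.10, so these values do not show that the Argonautes respond alike.

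The arrays themselves moved several members together. In control replicate 2, 7 of the 10 genes were below their control mean, and in CTNNB1 siRNA replicate 2 all 10 were below their group mean. The mean of the 10 log2 values was 7.77, 7.64 and 7.74 in the control arrays and 7.53, 7.44 and 7.55 with CTNNB1 siRNA. The same mean over all genes stayed between 6.49 and 6.51 in all 6 arrays. Without control replicate 2 the median change of the 10 genes was -0.24, and without CTNNB1 siRNA replicate 2 it was -0.14, beside -0.19 with all arrays.

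Pairs of members differed in how closely they ran together over the 6 arrays, which share a scaling and fall into 2 groups. XPO5 with AGO1 was the closest pair (Pearson r = 0.994), followed by DROSHA with XPO5 (0.958), DROSHA with AGO3 (0.927) and DROSHA with AGO1 (0.924). TARBP2 ran with none of the others above 0.441, and its lowest value was -0.33, with AGO4. DGCR8 with DROSHA gave 0.473. These are descriptions over 6 points.

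Lists of genes that act beside the machinery were described by the same fit. Together they held 135 measured genes, of which 11 rose, 6 fell and 118 did not pass, or 12.6% called, beside 4.72% of all genes. Of those 17 calls, 9 came from a single list, the double-stranded RNA binding proteins and sensors. In that list 50% of the genes were called, and in each of the other lists from 0 to 18.2%. The lists were chosen with earlier results of these data known, so the 12.6% describes the choice of genes and is no test of the pathway. Fitted with no moderation of the variance, 6 of the 17 remained, all of them sensors that rose, while the calls over all genes went from 870 to 111.

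**Figure D4:**
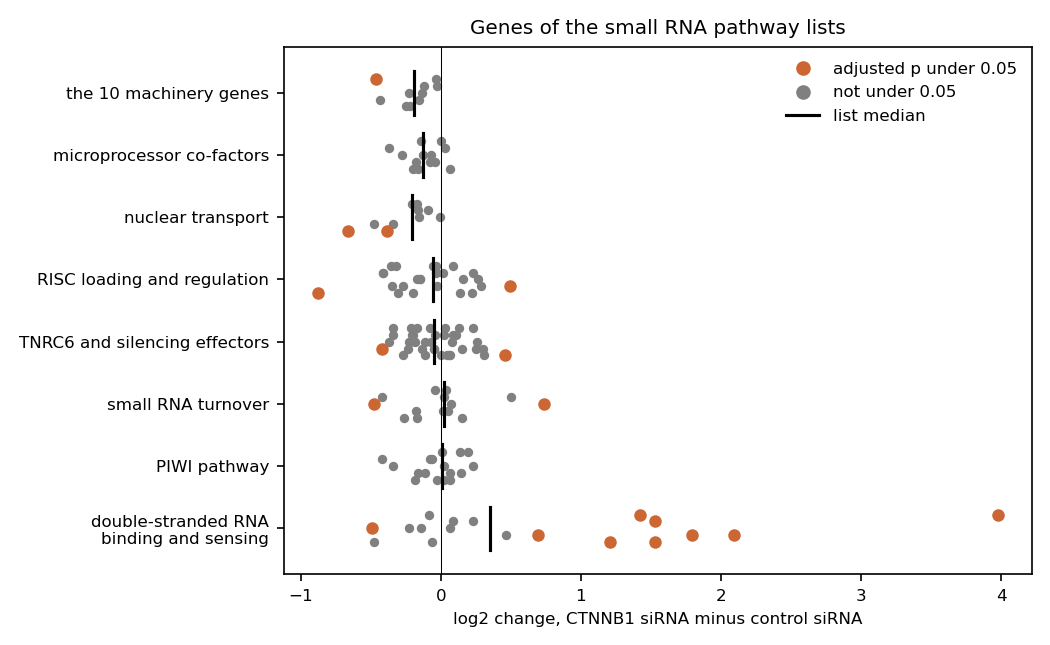
Log2 change of every measured gene in the 10-gene machinery and in each pathway list, CTNNB1 siRNA minus control siRNA (points; orange marks an adjusted p under 0.05), with a bar at the list median. Large rises appear in the list of double-stranded RNA binding and sensing, up to 3.98, while the machinery genes lie between -0.46 and -0.03.

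Nuclear transport genes, which include the export machinery around XPO5, all had negative changes. The median of the 11 measured genes was -0.21, and 2 fell (18.2%, beside 4.72% of all genes called) while the other 9 missed the threshold. Over all genes 48.8% had a negative change. None of the 11 had a control mean below the median signal of all genes, and the brighter genes had a median change of -0.05. How much of the list's shift follows signal was not tested. XPOT, the exportin that carries tRNAs and a relative of XPO5, measured 9.88 ± 0.07 in the control arrays and 9.21 ± 0.12 in the CTNNB1 siRNA arrays (SD, 3 arrays). It fell by 0.66 ± 0.10 on the log2 scale (SE), with an adjusted p of 0.00623 in limma. It passed with any 1 array left out and under all 3 other scalings, and was lost with no moderation (0.0812). IPO8, an importin that has been linked to Argonaute transport, fell by 0.39 ± 0.09 (adjusted p = 0.0462), a call lost with any 1 array left out (up to 0.169 without control replicate 1). The IPO8 call was also lost under a second quantile normalization (0.0575), cyclic loess (0.0573), no moderation (0.0950) and with every row tested (0.130). RANBP2, a nucleoporin that helps take export complexes apart, measured -0.48 ± 0.13 (adjusted p = 0.0624), and XPO1, the main protein exportin, named after its value was seen, -0.16 ± 0.12 (0.489).

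None of 13 Microprocessor co-factors was called in limma, and 1 had an unadjusted p under 0.05, beside 3746 of all 18417 genes. That gene was NCBP1, of the nuclear cap-binding complex, at -0.37 ± 0.11 (SE; adjusted p = 0.0889). METTL3, the m6A methyltransferase that marks hairpin precursors, measured -0.28 ± 0.13 (0.282), and the helicase gene DDX5 -0.18 ± 0.10 (0.383). The list median was -0.13.

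RISC loading and regulation was covered by 25 genes, with a median of -0.06: 1 rose, 1 fell and 23 missed the threshold. GEMIN5, an RNA-binding protein of the SMN complex, measured 8.13 ± 0.07 in the control arrays and 7.25 ± 0.14 in the CTNNB1 siRNA arrays (SD, 3 arrays). It fell to 0.543 of the control signal, with an adjusted p of 0.00149 in limma. It passed with any 1 array left out and was lost with no moderation (0.0626). MOV10, an RNA helicase found with Argonautes, rose 1.41-fold (adjusted p = 0.0201), a call lost without control replicates 1 or 3 or CTNNB1 siRNA replicates 1 or 2 (up to 0.111). HSPA4, a chaperone of the HSP70 cycle, measured -0.41 ± 0.11 (SE; adjusted p = 0.0588).

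The effectors downstream of Argonaute were called about as often as all genes, 2 of 38 or 5.26% beside 4.72%. Their median was -0.05, and 1 rose, 1 fell and 36 missed the threshold. TOB1, which recruits the deadenylase, rose by 0.46 ± 0.10 log2 units (SE; adjusted p = 0.0299), and CNOT1, the scaffold of the CCR4-NOT deadenylase, fell by 0.42 ± 0.09 (0.0338). Each call was lost without 5 of the 6 arrays in turn, with limma's adjusted p up to 0.143 and 0.149 without control replicate 1. CNOT1 stayed called only without CTNNB1 siRNA replicate 3, and TOB1 only without control replicate 3. PABPC1, the poly(A)-binding protein, measured -0.37 ± 0.10 (adjusted p = 0.0606). The Argonaute partners themselves, TNRC6A (-0.07 ± 0.09), TNRC6B (-0.04 ± 0.09) and TNRC6C (0.13 ± 0.09), named after their values were seen, did not pass.

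Of 14 genes for tailing, trimming and turnover of small RNAs, 1 rose and 1 fell. PNPT1, a mitochondrial exoribonuclease that is induced by interferon, measured 9.96 ± 0.17 in the control arrays and 10.70 ± 0.07 in the CTNNB1 siRNA arrays (SD, 3 arrays). Its 1.67-fold rise had an adjusted p of 0.00544 in limma, passed with any 1 array left out and was lost with no moderation (0.101). XRN2, the nuclear 5′ exonuclease, fell by 0.48 ± 0.12 (SE; adjusted p = 0.0468), a call lost with any 1 array left out (up to 0.157 without control replicate 3). ZSWIM8, which directs Argonautes for decay when their guide pairs with certain targets, measured 0.50 ± 0.14 (0.0805). Averaged over all rows of ZSWIM8, the change was 0.23 (limma, adjusted p = 0.381). LIN28B, the repressor of let-7 maturation, was dim at 2.61 ± 0.07 in the control arrays (SD, n = 3) and is named after its values were seen.

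None of 17 PIWI pathway genes, which act on germline small RNAs, was called in limma. An unadjusted p under 0.05 was found for 2 of them, beside 3746 of all 18417 genes. HENMT1, the methyltransferase of piRNA ends, measured -0.42 ± 0.13 (SE; adjusted p = 0.0849), TDRD3 -0.34 ± 0.12 (0.138) and PLD6 -0.19 ± 0.09 (0.278). In the control arrays 13 of the 17 lay below the median signal of all genes.

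Among 18 double-stranded RNA binding proteins and sensors 8 rose, 1 fell and 9 missed the threshold. The median change was 0.35 and the range -0.49 to 3.98, which overlaps that of the machinery genes, and the lists were not tested against each other. OAS2, which makes the second messenger that activates RNase L, rose 15.8-fold, IFIH1, the sensor MDA5, 4.28-fold, and OAS1 2.89-fold (limma, adjusted p = 1.66e-07, 2.46e-06 and 8.41e-06). The other genes that rose, all known to be induced by interferon and named after their values were seen, were EIF2AK2, OAS3, RIGI, DHX58 and ADAR. All 8 passed with any 1 array left out, and with no moderation DHX58 (adjusted p = 0.0569) and ADAR (0.0755) were lost. ZFR, a zinc finger RNA-binding protein, fell by 0.49 ± 0.10 (SE; adjusted p = 0.0205), a call lost in 4 of 6 cases with an array left out (up to 0.0959 without control replicate 1).

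MicroRNA hairpins are the substrates of the machinery. The array held 189 rows whose only symbol is that of a numbered or let-7 microRNA gene, and 16 of these name a host gene, the longer transcript around a hairpin, which leaves 173 hairpin rows. In a fit over all 33297 rows limma called none of the 189, beside 0.757% of all rows. Of the 173 hairpin rows, 17 had an unadjusted p under 0.05 (14 higher and 3 lower), beside 14.8% of all rows. The split of all rows into higher and lower was not counted. The median change of the 173 rows was 0.05, beside 0.04 among the dimmer genes in the fit by gene. Most of the hairpin rows were dim too, as 25 of the 173 lay above the median signal of all rows. The rows were not shown to be above background, and they do not tell precursor from mature microRNA.

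The hairpin rows with the smallest p were MIR192, MIR30A and MIR106B. Their 5′ arm sequences are printed with the seed, bases 2 to 8, in capitals. The sequences show what these hairpins encode, and the mature arms were not measured. In GRCh38.p14 they lie on the minus strand, at chr11:64891203-64891223, chr6:71403595-71403616 and chr7:100094043-100094063.
miR-192-5p: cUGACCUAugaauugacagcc
miR-30a-5p: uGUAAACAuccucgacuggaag
miR-106b-5p: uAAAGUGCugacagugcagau

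The seeds of these 3 differ from each other. In the RefSeq table the seed of miR-106b-5p belongs to 8 mature microRNAs, that of miR-30a-5p to 3 and that of miR-192-5p to 2. That table held mature sequences for 164 of the 173 hairpin symbols, so these counts may be low. MIR192 read 5.11, 5.57 and 5.48 in the control arrays and 6.20, 6.00 and 6.22 with CTNNB1 siRNA, a change of 0.75 ± 0.14 (SE; limma, adjusted p = 0.0815). MIR30A read 4.50, 4.20 and 4.34 and then 4.97, 5.11 and 4.83, a change of 0.63 ± 0.12 (0.0848). MIR106B read 4.98, 5.09 and 4.94 and then 5.38, 5.69 and 5.32, a change of 0.46 ± 0.12 (0.164). None of the 3 passed the threshold. Their groups were apart, which picking rows by small p favours. Of all 189 rows, host genes included, the groups were apart for 18 higher and 5 lower. Among the 18417 genes they were apart for 1998 higher and 2794 lower, and the share over all rows was not counted.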

How the data were processed

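The authors deposited log2 signals made with RMA in Affymetrix Expression Console 1.1, per the submitters' processing notes, from Affymetrix Human Gene 1.0 ST arrays; the labels give 500 ng of total RNA per array. RMA matches the distributions of the arrays, which would hide a shift common to most genes. The log2 scale fits the values, which run from 0.789 to 14.5. The genome build is not given in the sources used here. Of 33297 rows, 19460 had 1 gene symbol, and the brightest row per gene gave 18417 genes. Hairpin rows were tested in a fit over every row.

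The test was limma 3.58.1 (lmFit, eBayes) in R 4.3.3, two-sided, with p-values adjusted by Benjamini-Hochberg across the genes fitted and called under 0.05. The SD of the difference between arrays of a group was 0.203 to 0.262. Data were simulated for this comparison over 18417 genes, most of them unchanged. Of 67 genes changed by 0.5 log2 units, 28.4% were recovered. The shares were 92.5% of 67 genes changed by 1 and 100% of 66 genes changed by 2. Differences between members within arrays used an exact permutation test. Sequences are from RefSeq (GRCh38.p14).

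The members and lists were chosen with earlier results of these data known. Named genes are the 10 members, CTNNB1, up to 3 genes of each list and 3 hairpin rows with the smallest p, and the 5 genes most like XPO5. RAN was named for its planned difference with XPO5. The markers EPCAM, KRT8, PTPRC, PECAM1 and COL1A1 were named from their lists outside this rule. Other genes are marked in the text. Alternatives were a replicate block, other scalings, filters on dim genes, variance models, row choices, a threshold of 0.10 and leaving out each array. Those for the differences between members and for list genes, and the hairpin count without host genes, were added after seeing the data.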

Additional observations from a re-analysis of the deposited data

How the results depend on the processing

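The number of members called was 1, and it became 2 (XPO5 and DROSHA) with a replicate block, median centring, array weights, a trended and robust variance, without the dimmest 25% or 50% of genes, and at a threshold of 0.10. It became 0 with no moderation of the variance and with every row tested, and ranged from 0 to 1 with an array left out. The count of pathway list genes, 17, became 27 and 36 without the dimmest 25% and 50% of genes, 34 with a trended and robust variance, 30 at 0.10, 11 with every row tested and 6 with no moderation, and ranged from 11 to 17 with an array left out. CTNNB1 kept its change of -0.77 with no moderation, but the adjusted p was 0.0660. At 0.10, 2 hairpin rows passed. DGCR8 turned to 0.0042 with a second quantile normalization and 0.0064 with cyclic loess, and TARBP2 ranged from -0.098 to 0.025 with an array left out. AGO4 relative to AGO2 became -0.026 and -0.028 under those scalings and ranged from -0.024 to 0.088 with an array left out. The cause of these turns was not tested.

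Over all genes, 870 were called (382 higher, 488 lower), 1007 with median centring (340 and 667), 893 with cyclic loess (486 and 407) and 1177 with the replicate block. The count was 1861 without the dimmest 50% of genes and 111 with no moderation. With an array left out it ran from 283 (183 and 100, without CTNNB1 siRNA replicate 1) to 877, and it was 288 (193 and 95) without control replicate 1, so the balance of higher and lower calls turned. Deviations of arrays with the same replicate number correlated at -0.02, 0.33 and 0.22, and those with different numbers at -0.29 to 0.08. The labels name no batch, so the main fit had no replicate block, which is given as an alternative. Whether arrays with the same number share a batch was not tested. With 3 arrays a group, changes near 0.5 log2 units were mostly not recovered in the simulation. It held fewer changed genes than the 870 called here, which makes the adjustment stricter, so its share need not hold for these data. Background was not measured, so which rows lie above it is unknown.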
